A study of Caenorhabditis elegans with 15 samples.

Results

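The nuclear hormone receptor genes of Caenorhabditis elegans, taken as every gene whose WormBase symbol starts with nhr-, made up 268 of the 20392 genes in the count table. Nuclear hormone receptors are transcription factors with a zinc-finger DNA-binding domain and, in most members, a ligand-binding domain through which lipids, sterols or small metabolites can change their activity. Nematodes carry an unusually large set of them: a few correspond to receptors of insects and vertebrates, and most descend from an HNF4-like ancestor that multiplied within the lineage. In the worm they are known for control of moulting and epidermal development, of fat and propionate metabolism, and of responses to toxins, bacteria and low oxygen.

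RNA came from early embryos, of about 1 to 300 cells according to the design text, of cultures grown 60 to 65 h after L1 synchronization, in 5 groups of 3 independent biological replicates. WT was N2 (Bristol), at 20 °C or after 1 h at 37 °C (heat shock, HS). The met-2Δ group carried the deletion allele met-2(n4256), also at 20 °C and after 1 h at 37 °C, and met-2-CD carried met-2(gw1660), a point mutation in the SET domain of MET-2 that the study uses as catalytically deficient, at 20 °C only. MET-2 is the worm counterpart of SETDB1, which methylates lysine 9 of histone H3, a mark of silent chromatin. Gene totals ran from 16145040 to 58837967 counts a library, and levels are given as CPM, counts scaled to a common library size, after TMM scaling. The met-2 gene itself stood at 312.6 ± 6.26 CPM (SD, n = 3) in WT at 20 °C, 294.8 ± 13.98 in met-2-CD, 33.5 ± 0.919 for met-2Δ at 20 °C, and at 275.4 ± 9.88 in WT and 60.3 ± 2.03 in met-2Δ at 37 °C, so the met-2Δ libraries matched their label, while a transcript level does not check the point mutation. The WT libraries at 20 °C stood apart: 28 genes, none of them an nhr gene, had at most 3 counts in all of them and at least 20 in each of the other 12 libraries, or the reverse. Of 8 oocyte and early embryo markers, none passed both the FDR and the fold limit in any comparison, but cbd-1 and egg-1 were lower after heat with FDR below 0.01 (log2FC -1.72 and -1.54 in WT, -1.93 and -1.57 in met-2Δ). The 7 genes of the sperm list summed to 0.320 to 0.508 CPM in WT at 20 °C and 5.996 to 7.57 in heated WT. Its member spe-9 was called higher in met-2Δ and in heated WT (log2FC 1.002 and 4.05) and lower in heated met-2Δ than in heated WT (-1.07), while msp-3, msp-19 and msp-142 were at 3 counts or fewer in every library. The part of these genes in the receptor results was not tested.

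Chromosome V held 166 of the 268 receptor genes (61.9%, against 25.2% of all positioned genes), chromosome IV 33, chromosomes I and X 23 each, chromosome II 15 and chromosome III 8. Positions are those of the WBcel235 annotation, matched by gene identifier. Neighbouring receptors, with no other positioned protein-coding gene of the table between them, formed 45 runs of 2 to 9 genes, 32 of them on chromosome V. Genes of other types were not considered and may lie between them. Together the runs held 140 of the receptor genes. Each gene was placed in a level class by its mean in WT at 20 °C. By this rule 145 receptors (54.1%) were expressed, at 1 CPM or more, 36 (13.4%) were low and 87 (32.5%) were near zero, below 0.2 CPM. The same limits put 50.1%, 14.2% and 35.7% of all genes in these classes. Next to the limits stood nhr-164 (0.1998 CPM, near zero) and nhr-117 (0.202, low), and nhr-6 (0.996, low) and nhr-92 (1.02, expressed).

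The classes also differed in exon length and position. CPM is not scaled by length, so exon length enters the rule. Median exon length was 1.49 kb for expressed, 1.30 kb for low and 1.14 kb for near-zero receptors, while over all genes the medians were 1.51, 1.18 and 0.978 kb. On chromosome V, 30.7% of the receptors were near zero, against 54.3% of the 5013 genes of that chromosome in the table. On chromosome I the order was the other way round, with 60.9% of 23 receptors against 22.9% of all genes. Of the 45 runs of neighbours, 10 held both expressed and near-zero genes, and others joined low genes to genes of another class. The 7 genes of the run from nhr-56 to nhr-96 (chromosome V, 2219004 to 2235180) were all expressed, whereas in the longest run, the 9 genes from nhr-185 to nhr-124 (chromosome V, 3844429 to 3886204), 7 were near zero and none was expressed.

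Summed over the family, receptor transcripts took 2948 ± 80.1 CPM (SD, n = 3) in WT at 20 °C, 2529 ± 121 in met-2-CD, 2195 ± 60.3 in met-2Δ at 20 °C, 2704 ± 100.7 in WT at 37 °C and 2264 ± 44.9 in met-2Δ at 37 °C. Nearly all of this sum came from the expressed class, since the 87 near-zero genes together gave 5.196 ± 0.504 CPM in WT at 20 °C. That small sum was 9.84 ± 0.567 for met-2Δ at 20 °C, 9.21 ± 2.57 for met-2-CD, and reached 74.5 ± 12.2 in WT and 41.5 ± 5.89 in met-2Δ at 37 °C. The number of receptors with a group mean of 1 CPM or more at 20 °C was 145 in WT, 152 for met-2Δ, 156 for met-2-CD, and at 37 °C 174 in WT and 160 in met-2Δ. As shares of the receptors these were 54.1%, 56.7%, 58.2%, 64.9% and 59.7%. Over all genes the shares of the same groups were 50.1%, 55.6%, 53.4%, 63.2% and 59.3%. With every library thinned to the total of the smallest, 178 to 183 receptors had more than 3 counts in the WT libraries at 20 °C, 193 to 198 in met-2Δ, 186 to 191 in met-2-CD, 225 to 233 in WT at 37 °C and 211 to 217 in met-2Δ at 37 °C. No 2 of these ranges overlapped. Over all genes the mean share detected in this way moved from 62.3% in WT at 20 °C to 81.4% in WT at 37 °C. By library it was 61.6% to 63.0% in WT, 69.4% to 70.5% in met-2Δ and 64.4% to 67.7% in met-2-CD at 20 °C. At 37 °C it was 79.9% to 82.4% in WT and 75.9% to 76.7% in met-2Δ. These ranges did not overlap either and followed the same order, so nothing particular to receptors is read from it.

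The replicates of a group did not scatter alike. Among the expressed receptors, WT replicate c at 20 °C had the lowest level of its group for 103 of 145 genes (71.0%). Replicate a of met-2-CD was lowest for 93 (64.1%) and its replicate c highest for 99 (68.3%). Over all expressed genes the same places were taken for 34.3%, 34.5% and 31.3%, so these libraries were not low or high in general. At 37 °C, WT replicate c was lowest for 90 receptors (62.1%, against 42.9% of expressed genes). Heated met-2Δ replicate b was highest for 78 (53.8%, against 45.6%). The 3 met-2Δ libraries at 20 °C shared the lowest place more evenly, with 36, 55 and 54 genes. Counts of called genes are therefore given with the values without these libraries wherever that moved them by more than 1.5 times.

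The most abundant receptors per length in WT at 20 °C were nhr-2 (189.8 CPM per kb of exon), nhr-49 (93.5), nhr-25 (58.5), nhr-61 (55.2), nhr-20 (42.1), nhr-57 (41.4), nhr-46 (40.5), nhr-86 (39.5), nhr-10 (36.1) and nhr-35 (28.6). These 10 genes held 39.8% of the summed receptor CPM. The gene nhr-2 (WBGene00003601, chromosome I, 5818474 to 5821134, minus strand), a receptor known from the first zygotic transcription of the embryo, stood at 339, 329 and 382 CPM in the WT replicates a, b and c. Its levels were 218, 217 and 207 CPM in the met-2Δ replicates and 227, 196 and 187 in those of met-2-CD, below every WT library at 20 °C, and at 199, 172 and 178 in WT at 37 °C. The differences from WT at 20 °C were -0.71 ± 0.08 (log2FC ± SE) in met-2Δ, -0.78 ± 0.08 in met-2-CD and -0.94 ± 0.08 after HS, all with FDR under 0.01 and none beyond the fold limits used for calls, 2-fold between genotypes and 4-fold for heat. The HNF4-type receptor nhr-49, which controls fatty acid oxidation and desaturation, stood at 193, 204 and 202 CPM in WT at 20 °C and at 122, 111 and 127 in met-2Δ, again with no overlap.

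**Figure D1:**
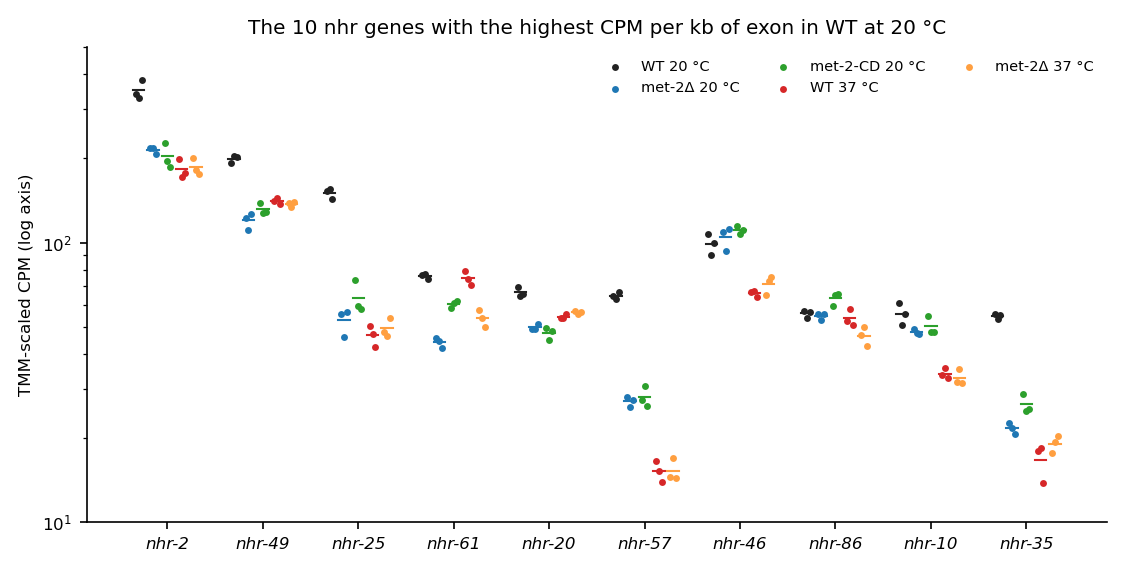
TMM-scaled CPM (log axis) of the 10 nhr genes with the highest CPM per kb of exon in WT at 20 °C, with 3 points for the replicates and a bar at the mean of each of the 5 groups. The WT libraries at 20 °C lie above those of the other 4 groups for nhr-2, nhr-49, nhr-25, nhr-20, nhr-57 and nhr-35, and do not for nhr-61, nhr-46, nhr-86 and nhr-10.

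To ask what loss of MET-2 changed, met-2Δ was compared with WT at 20 °C. A filter on low counts left 216 of the 268 receptors to test, and the 52 others, all near zero in WT, had group means of at most 0.492 CPM. Of the 216, 19 were called higher in met-2Δ and 16 lower (edgeR, FDR below 0.01 and more than 2-fold). Over all 15471 genes tested, 19.2% were called higher and 8.43% lower, so the receptors' 8.80% higher lay under the background and their 7.41% lower beside it. Their median log2FC was -0.07 (-0.03 with the 9 genes at 3 counts or fewer in a group set at their bound), against 0.07 over all genes. By class, 2 of 145 expressed receptors were called higher and 16 lower (7.7% and 11.9% of expressed genes were), 8 of 36 low ones higher (39.9% of low genes) and 9 of the 35 near-zero ones tested higher (43.2%). This split is a description, since the classes rest on the same WT libraries, and a near-zero gene passed the filter only if some other group was higher.

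The steepest falls in met-2Δ were those of nhr-94, nhr-95, nhr-25, nhr-161 and nhr-193. For nhr-25, an SF-1 and FTZ-F1 homolog needed for epidermal development and moulting (WBGene00003623, chromosome X, 13008493 to 13013964, plus strand), the WT replicates gave 153, 155 and 143 CPM and the met-2Δ replicates 55.4, 46 and 56.6, a log2FC of -1.52 ± 0.10 (FDR 5.58e-09). The gene nhr-94 stood at 19.4, 21.1 and 15.1 CPM in WT and at 6.21, 4.31 and 5.21 in met-2Δ (log2FC -1.82 ± 0.16), and nhr-95 at 12.8, 12.7 and 11.4 against 4.04, 3.99 and 3.37 (-1.69 ± 0.16). No library of met-2Δ reached the lowest WT library for any of these genes, which was a condition for naming them among the steepest. Among receptors with known roles, nhr-57, which is induced by the hypoxia factor HIF-1, fell from 64.6 ± 1.91 to 27.1 ± 1.18 CPM, nhr-80, which acts on fatty acid desaturases, fell from 3.89 ± 0.580 to 1.57 ± 0.0742, and nhr-176, which mediates cytochrome P450 induction by the drug thiabendazole, fell from 12.5 ± 0.871 to 5.16 ± 0.524 (SD, n = 3).

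The receptors that rose most in met-2Δ were nhr-52, nhr-216, nhr-26, nhr-117 and nhr-183, all from low or near-zero levels. In WT at 20 °C nhr-26 was at 3 counts or fewer in every replicate, and in met-2Δ it reached 0.311, 0.616 and 0.446 CPM, at least 6.80-fold higher when set against 3 counts a library. The corresponding bounds were 4.70-fold for nhr-52 and 3.72-fold for nhr-216. The gene nhr-117 moved from 0.245, 0.239 and 0.123 CPM to 2.14, 1.92 and 1.93 (log2FC 3.26 ± 0.37). Of the 2 expressed genes that rose, nhr-8, a relative of DAF-12 and the vitamin D receptor with roles in cholesterol balance and drug resistance, went from 7.37, 6.21 and 4.12 CPM to 16.6, 13.8 and 14.6 (log2FC 1.34 ± 0.24), and nhr-79 had a log2FC of 1.19. With library totals in place of TMM scaling, which shifted the median log2FC of all genes by 0.20, the split was 23 higher and 12 lower. Muscle genes moved in this comparison too: myo-3, unc-15 and unc-54 were called higher, hlh-1 lower, and the summed level of these 4 went from 127 to 222 CPM over the WT libraries to 457 to 663 over those of met-2Δ. Of the neuron list rab-3 was called higher and unc-119 lower, and its 4 genes summed to 329 to 389 CPM in WT and 196 to 210 in met-2Δ. Of the epidermis list col-10 was called higher, and its 5 genes summed to 538 to 585 and 403 to 426 CPM. The part of these genes in the receptor changes was not tested. In such bulk samples, fewer cells of a type and less RNA per cell cannot be told apart.

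To separate the catalytic activity from the protein, the study also profiled met-2-CD. Against WT at 20 °C, 24 receptors were called higher and 5 lower, where 15.9% and 7.84% of all genes were, so both of the receptors' shares, 11.1% and 2.31%, lay under the background. The 5 that fell were nhr-7, nhr-25, nhr-57, nhr-35 and nhr-193, all expressed in WT. Here nhr-25 stood at 73.3, 59.5 and 57.8 CPM (log2FC -1.25 ± 0.10) and nhr-57 at 27.3, 30.7 and 26.2 (-1.20 ± 0.09), all under their lowest WT libraries of 143 and 62.7 CPM. The gene nhr-7 went from 3.16, 3.20 and 4.04 CPM in WT to 1.13, 1.1 and 1.04 (log2FC -1.67 ± 0.23). Of the 24 that rose, 8 were expressed in WT, 11 low and 5 near zero, where 9.43% of expressed, 31.7% of low and 25.5% of near-zero genes were called higher and 10.2% of expressed genes lower. Of those whose replicates did not overlap WT, the strongest were nhr-26 (at least 9.58-fold), nhr-117 (log2FC 3.23), nhr-183 (3.19), nhr-170 (3.10) and nhr-125 (2.06). Overlapping ones such as nhr-51, described below, were left out of this ranking.

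The met-2-CD libraries were uneven for many of these genes. Levels of nhr-183 were 0.856, 1.81 and 3.50 CPM in replicates a, b and c, and those of nhr-62, a receptor needed for the longevity response to dietary restriction, were 23.9, 31.9 and 42.7 against 15.1, 17.1 and 8.06 in WT (log2FC 1.29 ± 0.22). For nhr-51 the met-2-CD replicates ran from 0.0552 to 0.663 CPM and overlapped the WT range of 0.0716 to 0.0752. The count of receptors called higher was 12 without met-2-CD replicate c, 14 without WT replicate c and 32 without met-2-CD replicate a, and the count called lower was 8 without met-2-CD replicate a. The same 3 muscle genes were called higher in met-2-CD, with a summed level over the 4 muscle genes of 391 to 801 CPM. Of the neuron list rab-3 was called higher and snb-1 lower (summed level 159 to 185 CPM), and of the epidermis list col-10 and dpy-7 were called higher (548 to 597 CPM). The part of these genes in the receptor calls was not tested.

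The direct comparison of both mutants contrasts no WT library, although all 15 libraries share the estimate of the spread and the near-zero genes tested were those that the filter kept. Between met-2Δ and met-2-CD at 20 °C, 2 receptors were called higher in met-2Δ and 6 lower, which is 0.926% and 2.78% against 4.96% and 0.892% of all genes. The median log2FC over the 216 receptors was -0.26, against 0.01 over all genes. Among the 145 expressed receptors none was called higher and 5 were called lower, by edgeR and by DESeq2 alike, and the median was -0.37; at an unadjusted p below 0.05 edgeR had 4 of them higher and 84 lower. Of expressed genes in general, 1.05% were called higher and 1.15% lower. No value over all expressed genes stands beside the median of -0.37 or the counts at an unadjusted p. Neither is read as particular to receptors. In the near-zero class 1 of 35 receptors was called higher, 2.86% against 13.8% of near-zero genes tested, a share from which nothing is read because of that filter, and in the low class 1 of 36 was called higher and 1 lower, where 11.3% and 0.639% of genes were.

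The lower receptors were nhr-148, nhr-177, nhr-95, nhr-270, nhr-44 and nhr-127, all on chromosome V. For nhr-95 the met-2-CD replicates gave 7.20, 8.69 and 9.65 CPM, between those of WT (12.8, 12.7 and 11.4) and those of met-2Δ (4.04, 3.99 and 3.37), with no overlap among the groups. By contrast nhr-148 was higher in met-2-CD (1.77, 1.62 and 1.82 CPM) than in WT (1.07, 1.07 and 0.468) or met-2Δ (0.932, 0.507 and 0.595). The genes nhr-276 and nhr-277 were the ones higher in met-2Δ, at 0.233, 0.254 and 0.347 CPM against 0, 0.0832 and 0.0207 for nhr-276 (log2FC 2.74 ± 0.64) and at 0.854, 0.797 and 0.992 against 0.331, 0.457 and 0.311 for nhr-277 (1.24 ± 0.26). The lower count rested in part on single libraries, being 18 without met-2-CD replicate a and 3 without met-2Δ replicate c. The higher count was 0 without met-2Δ replicate a or c and 1 without met-2Δ replicate b or met-2-CD replicate a. With library totals the split was 4 higher and 4 lower.

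HS in WT gave the most receptor calls of the 6 comparisons between groups: 53 of the 216 receptors were called higher at 37 °C than at 20 °C and 7 lower (FDR below 0.01, more than 4-fold), 24.5% and 3.24% against 28.2% and 4.02% of all genes. By class, 8 of 145 expressed, 11 of 36 low and 34 of 35 tested near-zero receptors were called higher, and all 7 that fell were expressed. Over all genes tested, 7.42% of expressed, 46.6% of low and 91.2% of near-zero genes were called higher and 5.7% of expressed genes lower. These class counts are a description, because the classes rest on the WT libraries at 20 °C. Counted over the whole class and not only the tested genes, 18 of the 87 near-zero receptors (20.7%) reached a mean of 1 CPM in heated WT, against 18.2% of the 7285 near-zero genes. On chromosome V, 37 of 139 tested receptors rose and all 7 fallers lay there, 26.6% and 5.04% where 41% and 2.93% of the chromosome's tested genes did.

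**Figure D2:**
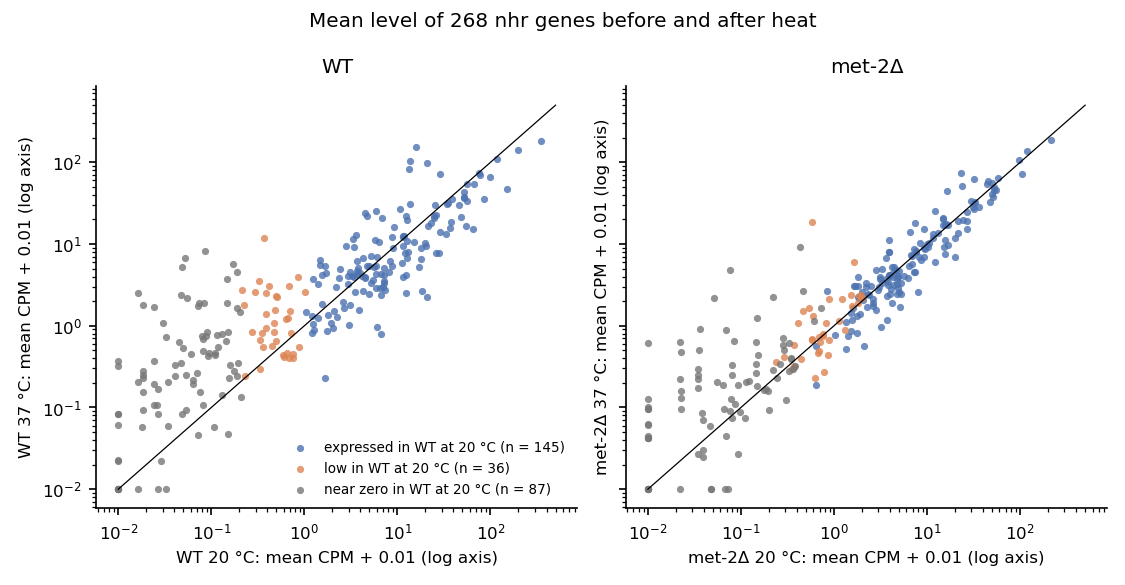
Mean CPM plus 0.01 of the 268 nhr genes at 20 °C (horizontal, log axis) and at 37 °C (vertical, log axis), in WT on the left and met-2Δ on the right, coloured by the level class in WT at 20 °C, with the line of equal levels. In WT, 18 of 87 near-zero receptors reach 1 CPM at 37 °C, and in met-2Δ 8 of 87 do.

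The receptors that rose most in heated WT were silent or nearly so before. Levels of nhr-26 went from 0.0564, 0.0716 and 0 CPM to 7.24, 5.23 and 7.49, at least 98.8-fold. Those of nhr-231 went from 0.0188, 0.0477 and 0.0493 to 6.17, 4.19 and 5.31, at least 77.6-fold, and those of nhr-241 from 0.0564, 0.0955 and 0.0740 to 8.69, 6.45 and 9.79 (log2FC 6.74 ± 0.36). Bounds for nhr-214 and nhr-272 were 37.6-fold and 26.3-fold. None of these genes reached 10 CPM in any library.

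In absolute level the rises of a few expressed receptors were far larger. The gene nhr-31, which acts in the excretory cell on V-ATPase genes (WBGene00003625, chromosome IV, 8022655 to 8029513, minus strand), went from 17.6, 18 and 11.7 CPM to 162, 159 and 145 (log2FC 3.30 ± 0.21, FDR 6.9e-10). Similarly nhr-3 rose from 14.4, 16.5 and 9.96 to 106, 104 and 100.5 CPM (2.93), nhr-62 from 15.1, 17.1 and 8.06 to 81.4, 96.7 and 73 (2.64), and nhr-12 from 24.1, 17.9 and 20.5 to 100.05, 99.6 and 94.7 (2.23). The other expressed genes that rose were nhr-203, nhr-43, nhr-107 and nhr-8. For all 4 receptors given with values the heated libraries lay well above those at 20 °C.

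The fallers were nhr-152, nhr-221, nhr-193, nhr-94, nhr-150, nhr-176 and nhr-57. Levels of nhr-152 went from 21.7, 23.9 and 16 CPM to 2.31, 2.11 and 2.22 (log2FC -3.21 ± 0.17, FDR 1.13e-10) and those of its neighbour nhr-94 from 19.4, 21.1 and 15.1 to 2.59, 2.72 and 2.60 (-2.81 ± 0.17). The hypoxia-responsive nhr-57 fell from 64.4, 62.7 and 66.6 to 16.6, 15.3 and 13.9 CPM (-2.08 ± 0.09). Below the 4-fold limit, nhr-25 was at 50.4, 47.2 and 42.3 CPM after HS (-1.69) and nhr-23, the ROR-like moulting receptor, at 19.8, 23.1 and 21.6 against 49, 49.2 and 47.5 (-1.18), in both cases with no overlap. With met-2-CD at 20 °C as the baseline in place of WT, an alternative chosen after the data were seen, 36 receptors were called higher, 33 of them among the 53, and 3 lower, all among the 7. The summed level of the 4 muscle genes was 1646 to 2575 CPM in heated WT. Of the adult intestine list, vit-2, vit-5 and vit-6 were called higher as well (log2FC 2.52, 5.89 and 2.85). The other members, ges-1 and elt-2, had a log2FC of -0.43 and -1.07. Over all 5 genes the list summed to 28.6 to 39.7 CPM against 40.5 to 48.96 before, a sum that does not follow the vit genes. Of the neuron and epidermis lists rab-3 and col-10 were called higher, with summed levels of 224 to 229 and 404 to 458 CPM in heated WT. The part of these genes in the receptor calls was not tested.

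**Figure D3:**
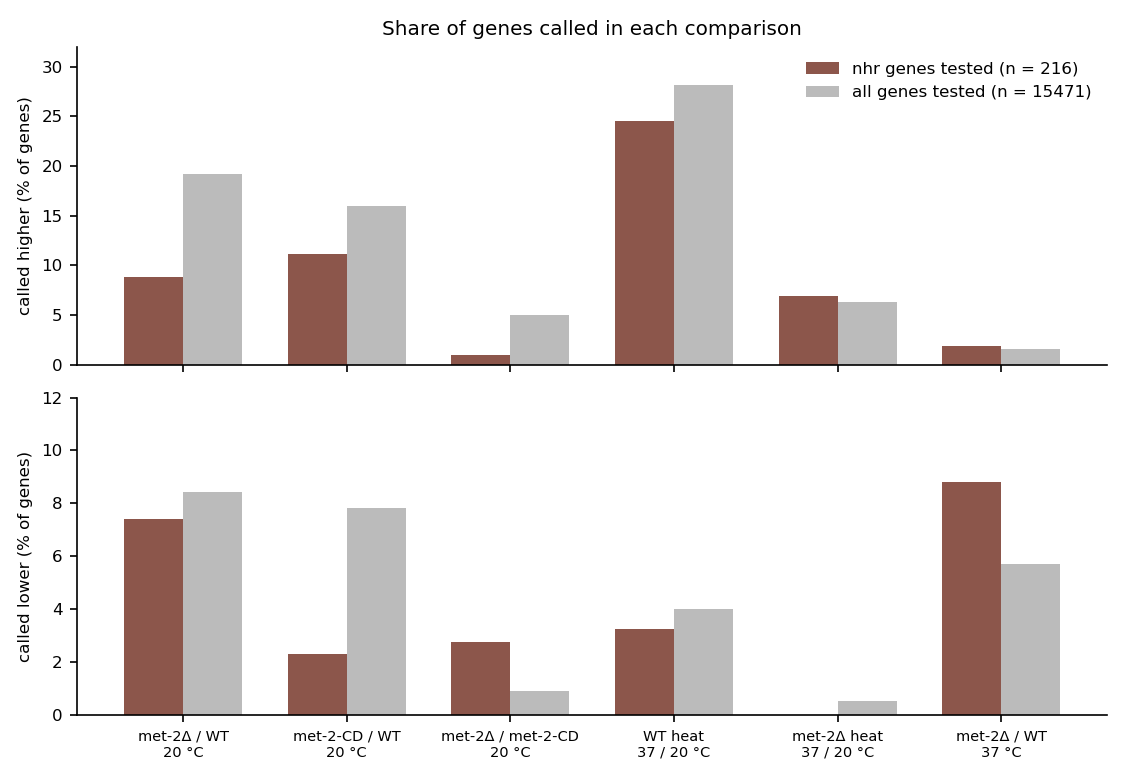
Percentage of the 216 nhr genes tested (brown) and of all 15471 genes tested (grey) called higher (top) or lower (bottom) in each comparison, at more than 2-fold between genotypes and more than 4-fold for heat. The receptors lie below all genes for higher calls in both mutants at 20 °C (8.80% against 19.2%, 11.1% against 15.9%). For lower calls in met-2Δ against WT at 37 °C the values are 8.80% and 5.71%, from 19 receptors that are 8, 10 or 12 without 1 of 3 libraries.

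The same HS in met-2Δ, compared within that genotype, gave 15 receptors called higher and none lower, 6.94% and 0% against 6.3% and 0.53% of all genes. For the lower direction edgeR had 53 receptors at an unadjusted p below 0.05, DESeq2 likewise called none, and 1 was called without met-2Δ replicate b or c at 37 °C. All 15 were among the 53 receptors that rose in WT, 100% of this list and 28.3% of the WT list. Of these 15, 14 were near zero, a class where 34 of 35 tested receptors were called higher in heated WT. Nothing is therefore read from the overlap, although these comparisons share no library. The heat comparison within met-2Δ also contrasts no WT library. Of the expressed receptors none of 145 was called in either direction by edgeR or DESeq2 (at an unadjusted p below 0.05 edgeR had 25 higher and 51 lower), where 0.812% of expressed genes were called higher and 0.656% lower. No share over all genes stands beside the counts at an unadjusted p in this comparison, and nothing is read from them. Of the low class 1 of 36 was called higher (7.33% of low genes), and of the tested near-zero receptors 14 of 35, 40% against 26.9% of all near-zero genes tested. The near-zero genes had to be higher in some group to be tested at all, so nothing is read from that share. Over the whole class, 8 of 87 (9.20%) reached 1 CPM in heated met-2Δ, against 11.02% of all near-zero genes.

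The leading genes in met-2Δ were nhr-39, nhr-241, nhr-231, nhr-214 and nhr-247. The gene nhr-241 went from 0.0388, 0.109 and 0.0496 CPM to 6.63, 3.44 and 4.38, at least 38.6-fold, and nhr-231 from 0.0388, 0.0362 and 0.0496 to 2.85, 2.19 and 1.56, at least 17.6-fold. For nhr-39, without a count in met-2Δ at 20 °C, the bound was 4.92-fold. The gene nhr-247 went from 0.699, 0.616 and 0.397 to 23.1, 15 and 17.6 CPM (log2FC 4.99 ± 0.29, FDR 3.38e-09), the highest level of any receptor of the low class in any group. Expressed receptors that rose in heated WT moved less here: nhr-31 went from 26.3, 21.6 and 20.9 to 73.2, 76.7 and 71.6 CPM (1.69 ± 0.20) and nhr-3 from 24.9, 22.3 and 23.3 to 48, 57.1 and 48.1 (1.12), both under the 4-fold limit.

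**Figure D4:**
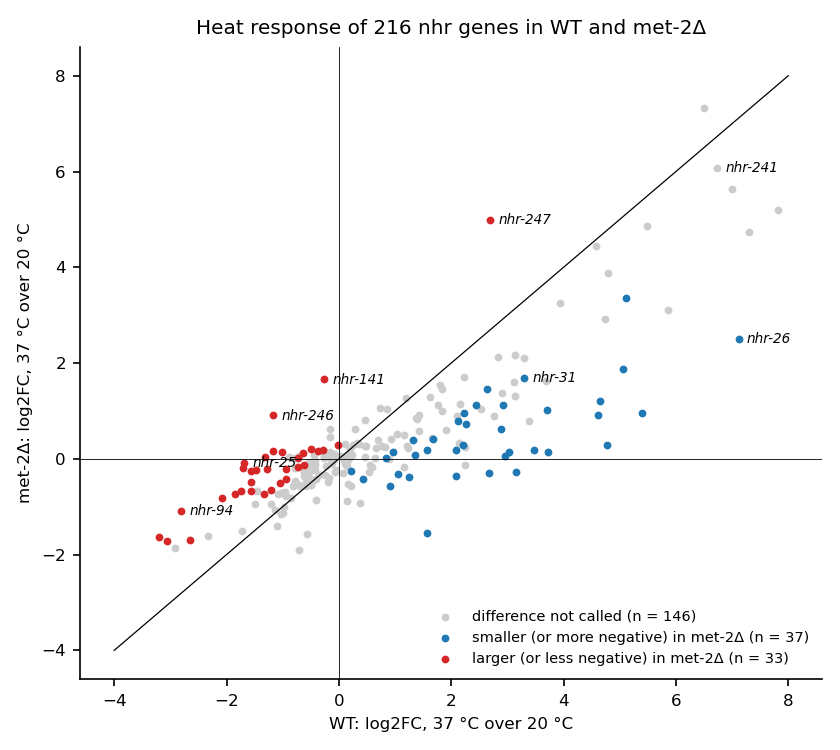
Heat response (log2FC, 37 °C over 20 °C) of the 216 nhr genes tested, in WT (horizontal) and in met-2Δ (vertical), coloured by whether the difference between the responses was called (edgeR interaction, FDR below 0.01), with the line of equal responses. The difference was negative for 37 genes and positive for 33; nhr-247, nhr-246 and nhr-141 lie above the line with a rise in met-2Δ.

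The difference between the heat responses, with that of WT subtracted from that of met-2Δ, was tested directly. It was called (FDR below 0.01, no fold limit) for 70 of 216 receptors, 33 positive and 37 negative, 15.3% and 17.1% against 23.1% and 27% of all genes. By class, 32 differences of expressed receptors were positive and 16 negative (34.7% and 17.4% of expressed genes), 1 and 10 of low ones (1.02% and 43.5%), and 11 of the near-zero ones were negative (47.9%). All 37 with a negative difference had a positive response in WT, and in 35 of them the change in met-2Δ was smaller in size. The WT response is part of the difference that selected these genes, and no matching count over all genes is given. Nothing is therefore read from these counts, nor from the matching one of the positive differences below. The largest negative differences were those of nhr-26 (-4.62 ± 0.56), nhr-216 (-4.49), nhr-52 (-4.43), nhr-51 (-3.69) and nhr-117 (-3.59). The last of these was at 2.84, 3.40 and 2.03 CPM in heated WT and 2.02, 2.46 and 2.10 in heated met-2Δ, and had already been at 1.92 to 2.14 in met-2Δ at 20 °C. Of the 33 positive differences, 30 had a change smaller in size in met-2Δ. They included nhr-25 (1.60 ± 0.15), nhr-35 (1.52), nhr-80 (1.36), nhr-23 (1.34) and nhr-57 (1.26), all lower in heated WT. The response of nhr-25 in met-2Δ was a log2FC of -0.09 ± 0.10, from 55.4, 46 and 56.6 CPM to 47.9, 46.4 and 53.9. These differences depend on the WT libraries at 20 °C. With met-2-CD at 20 °C as the baseline of the WT response, 17 receptors were called, 8 positive and 9 negative, 13 of them among the 70 and with the same sign, where 14.1% of all genes were called. With library totals, 19 differences were positive and 48 negative.

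At 37 °C the genotypes were also compared directly, without any library from 20 °C. Between heated met-2Δ and heated WT, 4 receptors were called higher and 19 lower in met-2Δ, 1.85% and 8.80% against 1.52% and 5.71% of all genes. The median log2FC was -0.33 over the receptors and -0.13 over all genes. By class, 2 of the 145 expressed receptors were called higher and 6 lower (1.38% and 4.14%, against 1.17% and 1.83% of expressed genes), and of the 36 low ones 1 higher and 2 lower (2.41% and 9.59% of low genes). Of the 35 tested near-zero receptors 1 was called higher and 11 lower, 2.86% and 31.4% against 1.97% and 17% of near-zero genes tested. Since 34 of these 35 were called higher in heated WT, most passed the filter through that group, and nothing is read from these shares, nor from the part they take in the 19. The lower ones were led by nhr-290 (log2FC -2.24 ± 0.42), nhr-214 (-1.996), nhr-272 (-1.93), nhr-110 (-1.93) and nhr-30 (-1.69). The 6 lower expressed receptors were nhr-109, nhr-205, nhr-101, nhr-31, nhr-107 and nhr-3. Levels of nhr-31 were 162, 159 and 145 CPM in WT and 73.2, 76.7 and 71.6 in met-2Δ (-1.07 ± 0.19, FDR 0.001). The lower count was 8 without met-2Δ replicate c, 12 without met-2Δ replicate b and 10 without WT replicate a, all at 37 °C. The higher count was 7 without WT replicate b or without met-2-CD replicate b or c at 20 °C, libraries that enter only through the shared estimate of the spread. Of the marker lists, spe-9, col-10, vit-2 and vit-5 were called lower in heated met-2Δ than in heated WT, and their part in the receptor calls was not tested.

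Of the 4 receptors higher in heated met-2Δ, nhr-246, nhr-291 and nhr-247 are neighbours (chromosome V, 15316477 to 15325379), and nhr-141 lies elsewhere on chromosome V. Among the 45 runs this was the only one with 3 genes called higher in this comparison, and it was picked out after its values were seen. The 3 genes started from different levels. In WT at 20 °C nhr-246 was expressed (6.92, 6.47 and 5.92 CPM), nhr-247 low (0.470, 0.191 and 0.468) and nhr-291 near zero (0.226, 0.119 and 0.197). After HS, nhr-247 was at 2.16, 2.26 and 3.02 CPM in WT and 23.1, 15 and 17.6 in met-2Δ (log2FC 2.90 ± 0.24, FDR 1.05e-06), nhr-291 at 4.15, 3.26 and 6.04 against 10.9, 9.82 and 6.96 (1.04 ± 0.26), and nhr-246 at 2.80, 2.26 and 3.52 against 7.72, 6.52 and 5.94 (1.24 ± 0.17). No heated met-2Δ library overlapped the heated WT range for any of them. The difference between the heat responses was 2.30 ± 0.43 for nhr-247 and 2.08 ± 0.23 for nhr-246, and remained at 2.96 and 1.79 with met-2-CD as the baseline. For nhr-291 it was -0.14 ± 0.50 and was not called. The gene nhr-246 was lower after HS in WT (log2FC -1.17) and higher in met-2Δ (0.91). Its mean in met-2Δ at 20 °C was 3.59 CPM, and its heated met-2Δ libraries overlapped the WT range at 20 °C. For nhr-141 the values were 0.993, 0.931 and 1.19 CPM in heated WT and 3.11, 2.01 and 2.88 in heated met-2Δ (1.35 ± 0.22).

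**Figure D5:**
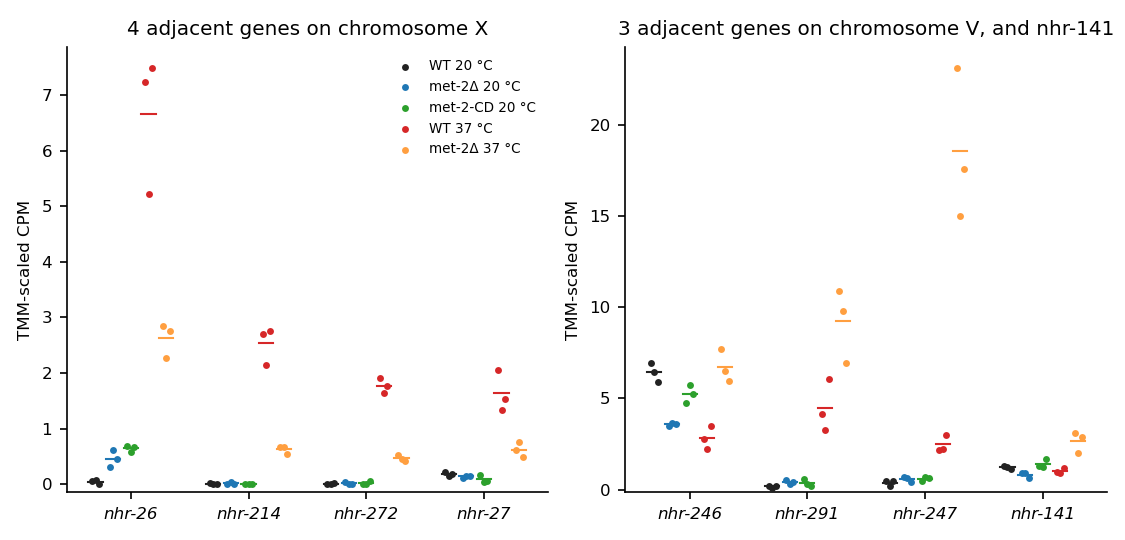
TMM-scaled CPM (linear axis) of 4 adjacent nhr genes on chromosome X (left) and of 3 adjacent nhr genes on chromosome V with nhr-141 (right), with 3 points for the replicates and a bar at the mean of each group. On the left the heated WT libraries are highest for each gene, up to 7.49 CPM for nhr-26; on the right the heated met-2Δ libraries are highest for nhr-291, nhr-247 and nhr-141, up to 23.1 CPM for nhr-247.

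The opposite order was seen in a run of 4 near-zero receptors on chromosome X, nhr-26, nhr-214, nhr-272 and nhr-27 (12695229 to 12808318), also picked out after its values were seen. All 4 were called higher after HS in WT, all 4 in met-2Δ, and all 4 were lower in heated met-2Δ than in heated WT. In the near-zero class 34 of 35 tested receptors were called higher in heated WT, so most passed the filter through that group. Nothing beyond the values is therefore read from this order. For nhr-214 the heated WT replicates were at 2.70, 2.15 and 2.75 CPM and the heated met-2Δ replicates at 0.674, 0.670 and 0.540, while among the 9 libraries at 20 °C the highest level was 0.0362. For nhr-27 the values were 2.06, 1.33 and 1.53 in WT and 0.622, 0.759 and 0.480 in met-2Δ. Other neighbours were called in the same direction too, and no rate for adjacent genes in general is given beside them. The adjacent nhr-94 and nhr-152 (chromosome V, 7684052 to 7688228) were both called lower in met-2Δ and in heated WT, and nhr-95 and nhr-145 (19076604 to 19092660) both lower in met-2Δ. The pair nhr-31 and nhr-258 (chromosome IV, 8022655 to 8047493) joined an expressed and a near-zero gene: nhr-258 went from 0.169, 0.167 and 0.148 CPM to 6.24, 5.05 and 5.93 in heated WT and stood at 2.13, 2.95 and 1.62 in heated met-2Δ. Reads were counted on the strand of the gene and only where they aligned uniquely, and how alike the neighbours are in sequence was not analysed here.

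Of the 11 receptors with clear homologs outside nematodes (nhr-6, nhr-8, nhr-23, nhr-25, nhr-41, nhr-48, nhr-64, nhr-67, nhr-69, nhr-85 and nhr-91), nhr-8 was called higher and nhr-25 lower in each mutant at 20 °C, nhr-8 was called higher after HS in WT, and none was called in the remaining 3 comparisons between groups. Of all genes, 19.2% were called higher and 8.43% lower for met-2Δ, 15.9% and 7.84% for met-2-CD, and 28.2% and 4.02% after HS in WT, so 1 of 11 in a direction is not read as a difference from other genes. The median log2FC of the list was -0.38 in met-2Δ and -0.16 after HS in WT, against 0.07 and 0.18 over all genes. The E75-like nhr-85, part of the moulting oscillator, stood at 3.39, 3.70 and 2.76 CPM in WT at 20 °C and 12.3, 10.9 and 11 after HS (log2FC 1.79), and at 9.28 to 13.7 in heated met-2Δ. The tailless homolog nhr-67 was highest in met-2-CD, at 25.5, 24.7 and 25.2 CPM against 21.6, 20.4 and 19.4 in WT and 16.7, 15.4 and 14.9 in met-2Δ, and lowest in heated met-2Δ, at 7.0, 7.95 and 7.62. Of the 6 receptors of the embryonic and developmental list (nhr-2, nhr-23, nhr-25, nhr-40, nhr-60 and nhr-67), nhr-25 was the only one called in a comparison between groups, and the median log2FC of the list was -0.63 in met-2Δ and -1.08 after HS in WT. The NR4A homolog nhr-6 lay between 0.603 and 3.33 CPM over the 15 libraries, with means from 0.776 in met-2-CD to 2.60 in heated WT, and was called in no comparison.

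Of 13 receptors known from metabolism or stress, none was called higher and nhr-57, nhr-80 and nhr-176 were called lower in met-2Δ at 20 °C, where 19.2% of all genes were called higher and 8.43% lower, and 11.9% of expressed genes lower. In met-2-CD nhr-62 was called higher and nhr-57 lower, where 15.9% and 7.84% of all genes were. In heated WT nhr-31 and nhr-62 were called higher and nhr-57 and nhr-176 lower. There 28.2% and 4.02% of all genes were, and 7.42% and 5.7% of expressed genes. Counts this small are not read as a difference from other genes. The median log2FC of the list was -0.26 in met-2Δ and -0.50 after HS in WT, against 0.07 and 0.18 over all genes. No median over expressed genes stands beside them, and neither is read as particular to these receptors. The partners of nhr-49 differed: nhr-66, which with it regulates sphingolipid genes, stayed within 91.5 to 119.2 CPM over all libraries, and nhr-13, a partner in fatty acid desaturation, within 16.2 to 25.9 CPM, and neither was called in any comparison. The propionate shunt regulators nhr-10 and nhr-68 were not called either, although nhr-68 was at 24.7, 28.1 and 24.9 CPM in WT at 20 °C and at 7.45, 7.38 and 8.56 after HS (log2FC -1.73, FDR 1.02e-08). The intestinal receptor nhr-114, which acts in the response to vitamin B12 and tryptophan, was at 10.4, 10.8 and 10.6 CPM in WT at 20 °C, at 29.7, 22.7 and 29.2 after HS and at 13.7, 14.3 and 13.4 in heated met-2Δ, and the difference between its heat responses was -1.29 ± 0.14 (FDR 2.03e-06).

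Of the known targets of these receptors, hphd-1 of the propionate shunt, a list of 5 genes under NHR-10 and NHR-68, was at 8.28 ± 0.886 CPM in WT at 20 °C, 50.8 ± 6.04 after HS and 16.2 ± 0.987 in heated met-2Δ, and was called higher after HS in WT and lower in heated met-2Δ than in heated WT. In that list acdh-1 was highest in met-2-CD, at 32.3 ± 9.63 CPM against 6.49 ± 0.637 in WT. Of 6 tested NHR-49 targets, acs-2, an acyl-CoA synthetase of fat oxidation, went from 1.84 ± 0.273 to 18.95 ± 7.04 CPM after HS in WT. It was the only one called there, where 28.2% of all genes were called higher. Under the 4-fold limit icl-1 was higher (log2FC 1.60) and ech-1.1 and hacd-1 lower (-0.68 and -0.72), all with FDR below 0.01. The 7 genes of the list summed to 570 to 639 CPM in WT at 20 °C and 1730 to 1958 in heated WT. In met-2-CD acs-2 and fat-5 were called higher (15.9% of all genes). Among 8 co-regulators of nuclear receptors, smo-1, the SUMO gene, was called lower in both mutants at 20 °C (1071 ± 76.0 CPM in WT, 462 ± 44.2 in met-2Δ, 311 ± 16.02 in met-2-CD) and spr-1 lower in met-2Δ. None of the 8 was beyond the 4-fold limit after HS in either genotype, with a median log2FC of -0.94 in WT and 0.02 in met-2Δ, and for 7 of them the difference between these responses was called, always positive (34.7% of expressed genes). With met-2-CD at 20 °C as the baseline of the WT response it was called for 3 of the 8, cbp-1, din-1 and gei-8. Among receptors without an nhr name, daf-12, whose ligand is dafachronic acid, went from 1.94 ± 0.357 CPM in WT to 4.26 ± 1.03 in met-2Δ and 9.50 ± 0.636 in heated WT, and was called higher in both, whereas sex-1, an X-chromosome counting factor, was called in no comparison between groups, at 377.7 ± 17.9 CPM in WT and 273.4 ± 22.1 in met-2Δ at 20 °C. Of a list of genes around dafachronic acid metabolism, dhs-16 was called higher in met-2-CD and in heated WT. It was at 3.36 ± 1.70 CPM in WT at 20 °C, 9.39 ± 3.26 in met-2-CD and 18.6 ± 1.31 in heated WT. In the same list strm-1 was called higher in met-2-CD (log2FC 1.63). The gene daf-9, with no more than 3 counts in any unheated WT library, was called higher in heated WT. It was called lower in heated met-2Δ than in heated WT (log2FC -1.57). No direction of ligand supply is read from the calls in this list.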

How the data were processed

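The authors deposited a table of raw counts of stranded total RNA-seq reads, 1 row per gene and 1 column per library. According to the study's methods, uniquely aligned reads were counted on the sense strand over the exons of each gene on the ce10 genome. Columns were assigned to groups by name; their letters a, b and c could not be matched to the replicate numbers of the labels, and all columns of the table were used. Symbols and positions came from the WBcel235 annotation by gene identifier (94.1% and 97.4% of genes matched), with no conversion of coordinates. No sequences were used here.

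Counts were tested with edgeR 4.0.16 (R 4.3.3): TMM scaling, its default filter on low counts and a quasi-likelihood F test over 5 group means from all 15 libraries, with Benjamini-Hochberg FDR over the 15471 genes tested. Calls needed an FDR below 0.01 and more than 2-fold (genotype) or 4-fold (heat), the study's limits; the difference of heat responses needed the FDR only. Folds against groups with 3 counts or fewer in every library are bounds against 3 counts a library. The common biological coefficient of variation was 11.8%. Tested on simulated data for met-2Δ against WT with all 15471 genes, 179 of 200 4-fold changes (89.5%) and no unchanged gene were called. All replicate pairs differed by 6.63 to 53.6 times the counting noise, so each library counted as 1 replicate. Alternatives were DESeq2 1.42.0, other scalings and filters, thinning, other groups in the fit and each library left out. Column letters met the criterion for pairing (every same-letter correlation of deviations over 0.1) in 1 comparison, heated met-2Δ against heated WT (0.157 to 0.324). The receptors named are those of 3 role lists, the 10 highest per kb and the 5 strongest calls each way in each comparison, with others where a count of 5 or fewer or a run is spelled out, and every receptor whose heat responses differed. Between groups, the strongest calls were taken only among genes whose replicates did not overlap. The receptors, lists and tests were chosen with earlier results of these data known.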

Additional observations from a re-analysis of the deposited data

Results flagged for a closer look

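The difference between the heat responses of met-2Δ and WT (edgeR interaction, met-2Δ minus WT, FDR below 0.01) was negative for 37 receptors and positive for 33. The negative differences of more than 2 in size on the log2 scale were those of nhr-26 (-4.62), nhr-216 (-4.49), nhr-52 (-4.43), nhr-51 (-3.69), nhr-117 (-3.59), nhr-170 (-3.45), nhr-37 (-3.43), nhr-63 (-3.29), nhr-125 (-3.18), nhr-195 (-3.12), nhr-225 (-2.97), nhr-183 (-2.91), nhr-157 (-2.88), nhr-30 (-2.69), nhr-124 (-2.44) and nhr-180 (-2.26). The smaller negative ones were those of nhr-50 (-1.92), nhr-8 (-1.91), nhr-3 (-1.81), nhr-258 (-1.76), nhr-149 (-1.63), nhr-31 (-1.62), nhr-43 (-1.54), nhr-238 (-1.48), nhr-123 (-1.40), nhr-101 (-1.37), nhr-203 (-1.33), nhr-107 (-1.33), nhr-114 (-1.29), nhr-12 (-1.28), nhr-212 (-1.27), nhr-62 (-1.19), nhr-97 (-0.92), nhr-79 (-0.85), nhr-19 (-0.82), nhr-153 (-0.81) and nhr-45 (-0.48). It was positive for nhr-247 (2.30), nhr-246 (2.08), nhr-141 (1.92), nhr-94 (1.72), nhr-25 (1.60), nhr-152 (1.57), nhr-35 (1.52), nhr-80 (1.36), nhr-221 (1.35), nhr-23 (1.34), nhr-95 (1.31), nhr-57 (1.26), nhr-161 (1.24), nhr-256 (1.16), nhr-122 (1.12), nhr-90 (1.08), nhr-119 (1.07), nhr-145 (1.06), nhr-150 (0.95), nhr-140 (0.90), nhr-5 (0.76), nhr-137 (0.75), nhr-2 (0.73), nhr-49 (0.70), nhr-32 (0.59), nhr-78 (0.56), nhr-28 (0.55), nhr-69 (0.55), nhr-138 (0.53), nhr-168 (0.52), nhr-22 (0.48), nhr-20 (0.47) and nhr-61 (0.31). With met-2-CD at 20 °C as the baseline of the WT response, 13 of these 70 calls were kept with the same sign: nhr-247, nhr-246, nhr-141, nhr-152, nhr-119, nhr-122 and nhr-145 stayed positive, and nhr-216, nhr-30, nhr-63, nhr-3, nhr-12 and nhr-114 stayed negative.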

How the results depend on the processing

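Of 6680 values of named receptors under the alternatives, 6429 kept their direction and call, 98 lost the call, 38 gained one, 111 changed sign without being called in either fit, and 4 called values reversed. All 4 were differences of heat responses with met-2-CD at 20 °C as baseline, chosen after the data were seen (nhr-2 -0.0516, nhr-20 -0.0153, nhr-61 -0.0218, nhr-62 0.101). Counts of called receptors are given as higher and lower. Without a fold limit met-2Δ against WT gave 58 lower, met-2-CD against WT 47 and 29, met-2Δ against met-2-CD 5 and 35, WT heat 84 and 64, met-2Δ heat 37 and 36, and the comparison at 37 °C 9 and 31. Library totals gave 3 lower for met-2-CD, 4 higher for met-2Δ against met-2-CD and 19 positive differences of heat responses. Fits of only the groups compared gave 13 higher for met-2-CD and 0 for met-2Δ against met-2-CD. Thinning gave 1 higher for met-2Δ against met-2-CD and 1 lower for met-2Δ heat. With met-2-CD as baseline, WT heat gave 3 lower, and the difference of heat responses 8 and 9. The low class held 21, 55 or 22 receptors with limits of 0.5 CPM for expressed, or 0.1 or 0.4 for near zero. More than 10 counts after thinning were seen for means of 149 (WT), 167 (met-2Δ) and 165 (met-2-CD) receptors at 20 °C, and 192 (WT) and 177 (met-2Δ) at 37 °C.

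Leaving out each library in turn gave 13 to 20 and 15 to 21 (met-2Δ), 12 to 32 and 5 to 8 (met-2-CD), 0 to 3 and 3 to 18 (met-2Δ against met-2-CD), 45 to 57 and 7 (WT heat), 14 to 17 and 0 to 1 (met-2Δ heat), 3 to 7 and 8 to 20 (37 °C), and 25 to 37 and 25 to 38 (difference of heat responses).

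Same-letter columns correlated in their deviations at over 0.1 in 15 of 30 pairs (-0.75 to 0.49), and in all 3 pairs of only 1 comparison, met-2Δ against WT at 37 °C. A replicate block on the letter gave 16 and 16 for met-2Δ, 23 and 5 for met-2-CD, 2 and 8 for met-2Δ against met-2-CD, 53 and 7 for WT heat, 15 and 0 for met-2Δ heat, 3 and 16 at 37 °C and 30 and 34 for the difference of heat responses, and moved no count by over 1.5 times. The limit of 3 counts lay at 0.0564 to 0.180 CPM, and differences between groups that both lie under it were not detectable.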
